A study of Bos taurus with 40 samples.

Results

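The genes described here are *GHR* (ENSBTAG00000001335), which encodes the growth hormone receptor, and *IGF1* (ENSBTAG00000011082), which encodes insulin-like growth factor 1. They were taken by gene identifier, as 2 of the 8531 genes listed in any file of the series. *GHR* was listed in both tissues of both sexes, whereas *IGF1* was listed for liver only, so *IGF1* in muscle was not analysed here. No annotation of the genome build the reads were aligned to was used here, and coordinates are therefore not given.

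Growth hormone from the pituitary binds its receptor on liver cells, and the receptor signals through the kinase JAK2 and the transcription factor STAT5B to switch on *IGF1*. Liver is the main source of the IGF1 that circulates in blood, and IGF1 in turn promotes growth of muscle and bone and restrains the release of growth hormone. In cattle, hepatic growth hormone receptor and *IGF1* mRNA are known to respond to the plane of nutrition.

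RNA sequencing was performed on biopsies of liver and of skeletal muscle (*M. longissimus thoracis et lumborum*) from purebred Simmental bulls and heifers. The cattle were housed from about 15 months of age with ad libitum concentrate and some grass silage, and biopsied at the end of the feed intake test. Within each sex, animals were ranked on residual feed intake (RFI), the part of feed intake that body size, growth and fat change do not account for, so that high RFI animals are inefficient and low RFI animals efficient. All were bred from parents ranked on the same trait, with high and low RFI dams mated to sires of the matching kind. The 8 groups (bull or heifer, liver or muscle, high or low RFI) held 5 samples each, 40 in all. Of the 20 animal tags in a tissue, 5 appear in both tissues. Some muscle tags begin with M and some heifer liver tags with L, so these cannot match between tissues. The paper describes both biopsies as taken from the animals selected on RFI, so unmatched tags need not mark different animals.

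Of the 40 samples, 7 carried the profile of the other tissue and were set apart. Genes that differed over 32-fold between bull liver and heifer muscle gave each sample a share of the other tissue's profile. It was 48.4 to 99.7% in bull muscle M12, M6, 2712 and M74 and heifer liver 2728, L58 and L16, and at most 2.17% in the other 33. This left 10 bull and 7 heifer liver samples and 6 bull and 10 heifer muscle samples. The total reads counted per sample were 2368340 to 60929308 (median 19749119), and bull liver 2713 was the lowest. Values are in CPM, the number of reads assigned to a gene after every library is brought to a common total.

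*GHR* was highly expressed in liver. Its mean was 224 CPM ± 48.3 (SD, n = 17), above the mean of 92.5% of the genes listed for the liver of both sexes. In high RFI bulls, *GHR* was 228 CPM in 2701, 220 CPM in 2703, 297 CPM in 2641, 210 CPM in 64 and 252 CPM in 68. In low RFI bulls it was 219 CPM in 2659, 170 CPM in 2669, 174 CPM in 2712, 281 CPM in 2713 and 275 CPM in 2723. The RFI groups overlapped over most of their range, and the highest and lowest bulls both had 4-digit tags.

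In high RFI heifers, liver *GHR* was 141 CPM in 2670, 218 CPM in 2704, 265 CPM in 2705 and 213 CPM in L60. In low RFI heifers it was 233 CPM in L59, 133 CPM in 2632 and 275 CPM in 2660. Each RFI group of heifers thus held 1 animal well below the others, and both groups reached the level of the bulls. Between 666 and 6029 reads lay behind each liver value, so that counting error was at most 3.87% of a value.

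**Figure D1:**
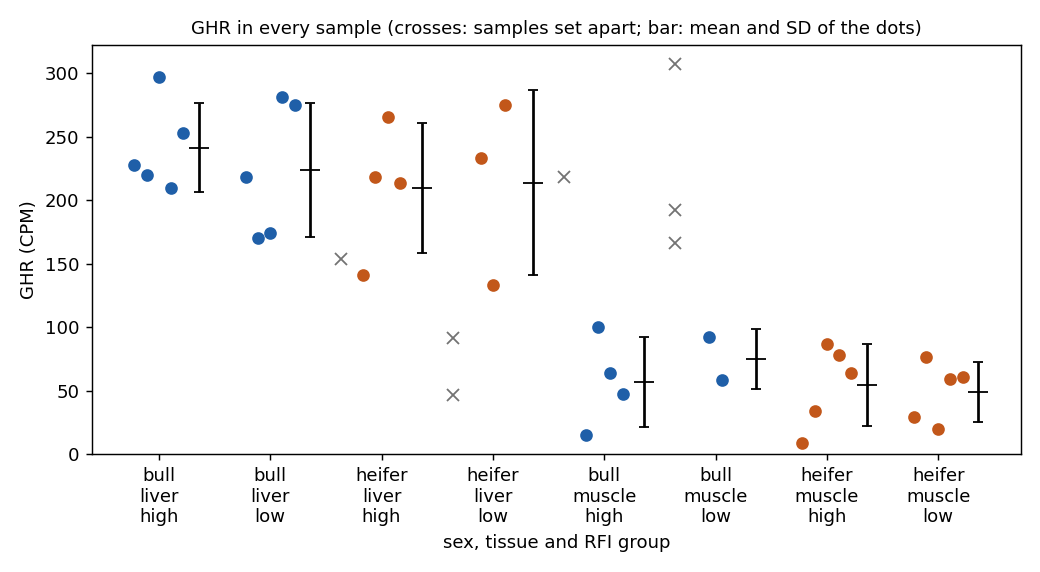
GHR in CPM (vertical axis) in each sample of the 8 groups (horizontal axis), bulls in blue and heifers in orange. Dots are the 33 samples kept, bars their mean and SD, and grey crosses the 7 samples set apart. Liver dots lie between 133 and 297 CPM and muscle dots between 8.73 and 99.9 CPM, and the crosses of bull muscle lie at 166 to 307 CPM.

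*GHR* was lower in muscle than in liver and varied more between animals. In high RFI bulls, muscle *GHR* was 14.9 CPM in 2641, 99.9 CPM in 2666, 64.2 CPM in M57 and 47.5 CPM in M65. The 2 low RFI bulls kept had 91.8 CPM (2723) and 58.2 CPM (M67). High RFI heifers had 8.73 CPM in 2628, 33.9 CPM in 2647, 86.4 CPM in 2704, 78.1 CPM in M69 and 63.7 CPM in M73. Low RFI heifers had 29.5 CPM in 2632, 76.2 CPM in 2690, 19.8 CPM in 2724, 59.3 CPM in M62 and 60.5 CPM in M70. The lowest values, in 2628, 2641 and 2724, came from both sexes and both RFI groups.

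All 3 of these samples had 4-digit tags. Across the 6 heifer muscle samples with 4-digit tags *GHR* ran from 8.73 to 86.4 CPM, and across the 4 with short tags from 59.3 to 78.1 CPM. In bull muscle it ran from 14.9 to 99.9 CPM in the 3 samples with 4-digit tags and from 47.5 to 64.2 CPM in the 3 with short tags. What the tag style stands for is not given in the sources used here, and its part in the spread was not tested.

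The spread between animals of 1 group can be set beside that of all genes. On the log2(CPM + 1) scale, after scaling by a trimmed mean of M values, the within-group SD of *GHR* was 0.95 in muscle, larger than that of 95% of 5358 genes. In liver it was 0.34 for *GHR* and 0.50 for *IGF1*, larger than that of 83.9% and 95.7% of 7045 genes. Both members were therefore more variable than most genes in the tissues where they were listed. Their standing in liver differed by sex. The SD of *GHR* was larger than that of 77.0% of genes in bulls and 86.2% in heifers. For *IGF1* it was larger than that of 97.2% in bulls and 78.8% in heifers.

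*GHR* differed between the tissues by more than the spread between samples. The mean was 224 CPM in liver against 55.8 CPM ± 27.9 (SD, n = 16) in muscle, and the lowest liver sample (133 CPM) lay above the highest muscle sample (99.9 CPM). The log2 difference, liver minus muscle, was 2.02 (SE 0.23, 95% interval 1.56 to 2.49), or 4.07-fold, with an adjusted p of 6.73e-10 by limma. Of the 4416 genes listed in all 4 comparisons, 83.2% passed the adjusted p of 0.1 in this fit, with a median log2 difference of 0.05, so that a difference between the tissues was the rule and not particular to *GHR*.

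In 4 animals, those that the tags could match, both tissues were kept. The fit of liver against muscle took all samples as independent. *GHR* in liver and muscle was 297 and 14.9 CPM in bull 2641, 275 and 91.8 CPM in bull 2723, 218 and 86.4 CPM in heifer 2704, and 133 and 29.5 CPM in heifer 2632. It was higher in liver in 4 of 4 animals, with a mean log2 difference of 2.17 ± 1.10 (SD, n = 4). The exact paired permutation test gave p = 0.125, the smallest that 4 pairs allow. Bull 2641 had the highest *GHR* of all liver samples and the lowest of the bull muscle samples.

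*IGF1*, the product that growth hormone drives in liver, was higher in bulls than in heifers. In high RFI bulls it was 51.9 CPM in 2701, 55.5 CPM in 2703, 122 CPM in 2641, 48.2 CPM in 64 and 42.0 CPM in 68. In low RFI bulls it was 62.3 CPM in 2659, 40.8 CPM in 2669, 32.3 CPM in 2712, 65.9 CPM in 2713 and 69.3 CPM in 2723. Bull 2641 stood far above the other bulls, and 2712 was the lowest.

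In high RFI heifers, *IGF1* was 22.4 CPM in 2670, 22.4 CPM in 2704, 36.9 CPM in 2705 and 34.1 CPM in L60. In low RFI heifers it was 25.1 CPM in L59, 14.8 CPM in 2632 and 27.2 CPM in 2660. The ranges of the sexes overlapped only where heifers 2705 and L60 lay above bull 2712. The reads on *IGF1* numbered 156 to 2482 in the 17 samples, and counting error was at most 8.01% of a value, in bull 2713.

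**Figure D2:**
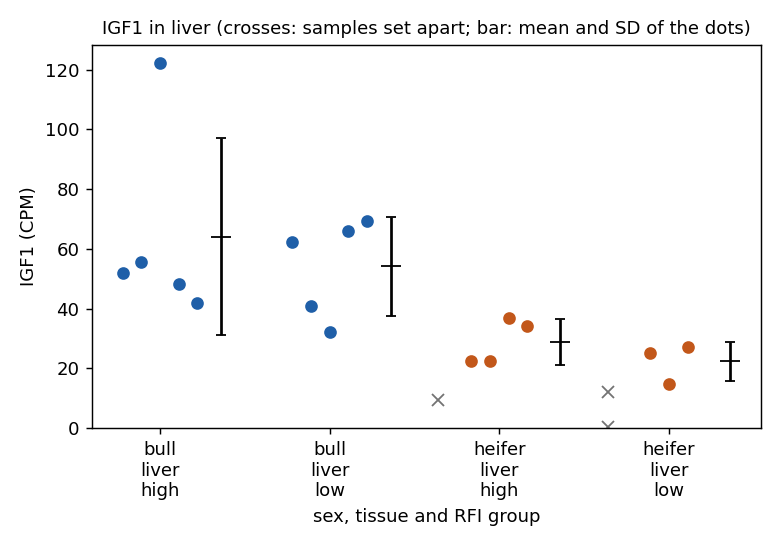
IGF1 in CPM (vertical axis) in liver by sex and RFI group (horizontal axis), bulls in blue and heifers in orange. Dots are the 17 samples kept, bars their mean and SD, and grey crosses the heifer samples set apart. Bulls lie at 32.3 to 122 CPM and heifers at 14.8 to 36.9 CPM, and the crosses lie at 0.418 to 12.1 CPM.

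The means were 59 CPM ± 25.1 (SD, n = 10) in bulls and 26.1 CPM ± 7.51 (SD, n = 7) in heifers. With the RFI group as a term, the log2 difference of *IGF1*, bulls minus heifers, was 1.09 (SE 0.21, 95% interval 0.64 to 1.54), or 2.13-fold, with an adjusted p of 0.0123 by limma. The exact permutation test, with sexes exchanged within each RFI group, gave p = 0.000425. In this fit 3.93% of 7045 genes passed (133 higher in bulls and 144 lower, or 161 and 116 with library size alone, median log2 difference of all genes 0.01), and *IGF1* ranked 37 by p. A larger difference in size was seen in 0.412% of the genes.

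The sex difference of *IGF1* was seen in both RFI groups. It was 1.02 on the log2 scale among high RFI animals (exact permutation p = 0.0159, n = 5 and 4) and 1.18 among low RFI animals (exact permutation p = 0.0357, n = 5 and 3). Among the 4-digit tags it was 1.23 (exact permutation p = 0.00311, n = 8 and 5), and among the short tags 0.55, where 2 animals against 2 cannot give an exact permutation p below 0.333. With the 3 heifer samples set apart put back, the difference was 1.61 and its adjusted p by limma 0.167. The labels name no batch, and a batch that followed sex cannot be told apart from sex here.

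*GHR* did not pass in the same comparison. Its mean in liver was 233 CPM ± 43.3 (SD, n = 10) in bulls and 211 CPM ± 55.6 (SD, n = 7) in heifers. The log2 difference was 0.14 (SE 0.15, 95% interval −0.19 to 0.46) with an adjusted p of 0.747 by limma, and the exact permutation p was 0.422. In muscle, *GHR* was 62.8 CPM ± 30.9 (SD, n = 6) in bulls and 51.6 CPM ± 26.8 (SD, n = 10) in heifers, with a log2 difference of 0.37 (SE 0.43, 95% interval −0.53 to 1.27, adjusted p = 0.890 by limma). In the muscle fit 0.131% of 5358 genes passed (1 higher in bulls and 6 lower, or 1 and 3 with library size alone).

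The reads on *IGF1* were then set against those on *GHR* in the same sample, a measure chosen after the values had been seen. This ratio does not depend on how libraries are scaled, and as it is not corrected for transcript length it says nothing of which mRNA was the more abundant. Per 100 *GHR* reads, bulls had 24.8 ± 6.65 *IGF1* reads (SD, n = 10) and heifers 12.6 ± 2.66 (SD, n = 7). The lowest bull (68, with 16.6) lay above the highest heifer (L60, with 16), but this gap is within counting error, as the exact binomial 95% intervals were 15.5 to 17.8 and 14.1 to 18.2 (counting error only).

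The log2 difference of the ratio between bulls and heifers was 0.98, with an exact permutation p of 0.000142, the smallest the design allows, which rests on the order of these values as measured. The highest ratio, 41.2, was that of bull 2641, and the lowest, 9.90, that of heifer 2660. By RFI, the ratio was 25.8 ± 9.19 in high and 23.9 ± 3.61 in low RFI bulls (SD, n = 5 each, exact permutation p = 0.889). In heifers it was 14.0 ± 2.68 in high (SD, n = 4) and 10.6 ± 0.642 in low RFI animals (SD, n = 3, exact permutation p = 0.114), where the smallest possible p was 0.0286.

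**Figure D3:**
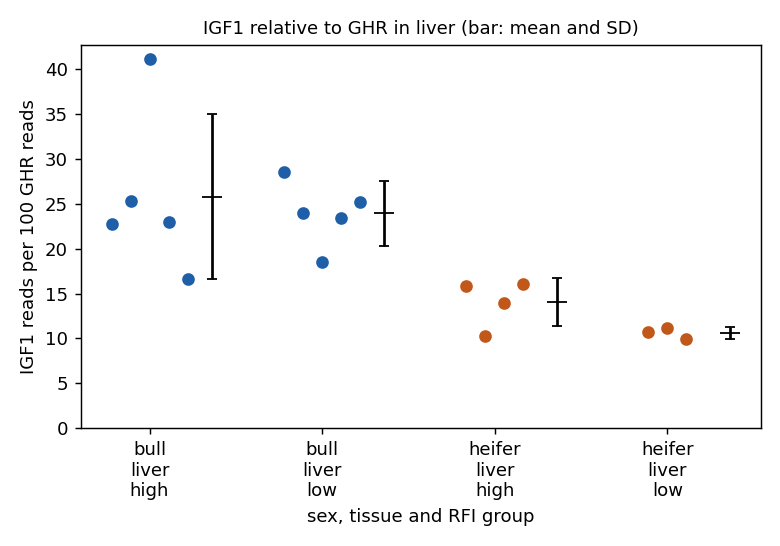
IGF1 reads per 100 GHR reads (vertical axis) in 17 liver samples by sex and RFI group (horizontal axis), with mean and SD, bulls in blue and heifers in orange. Every bull lies at 16.6 or above and every heifer at 16 or below.

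The study compared low with high RFI within each sex and tissue, over all genes. Neither *GHR* nor *IGF1* passed in any of these comparisons. In bull liver, *GHR* was 241 CPM ± 34.9 in high and 224 CPM ± 53.0 in low RFI animals (SD, n = 5 each), a log2 difference, low minus high, of −0.08 (SE 0.17, 95% interval −0.44 to 0.28, adjusted p = 0.931 by limma). The level of *IGF1* was 64.0 CPM ± 33 for high RFI bulls against 54.1 CPM ± 16.5 for low RFI ones (SD, n = 5 per group), with a log2 difference of −0.13 (SE 0.30, 95% interval −0.78 to 0.51, adjusted p = 0.931 by limma). The bull livers with short tags, 64 and 68, were both of high RFI. With tag style as a term, the log2 difference was −0.16 for *GHR* and −0.43 for *IGF1* (95% interval −1.11 to 0.25, adjusted p = 0.998 by limma). The share of all genes that passed in bull liver was 0%, 0 of 7363 by limma, with 555 at an unadjusted p under 0.05, 10 by the edgeR exact test and 68 by DESeq2, and neither member was among the genes so called.

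In heifer liver, *GHR* was 209 CPM ± 51.3 in high (SD, n = 4) and 214 CPM ± 72.8 in low RFI animals (SD, n = 3). The log2 difference was 0.08 (SE 0.27, 95% interval −0.52 to 0.68, adjusted p = 1.00 by limma). The level of *IGF1* was 29.0 CPM ± 7.67 for high RFI heifers (SD, n = 4) against 22.4 CPM ± 6.61 for low RFI ones (SD, n = 3), with a log2 difference of −0.29 (SE 0.23, 95% interval −0.82 to 0.24, adjusted p = 1.00 by limma). By limma 0 of 7231 genes (0%) passed here, with 181 at an unadjusted p under 0.05, 6 by the edgeR exact test and 5 by DESeq2.

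When the liver samples of both sexes were fitted together, the log2 difference with RFI was −0.01 (SE 0.15, 95% interval −0.33 to 0.30) for *GHR* and −0.20 (SE 0.21, 95% interval −0.64 to 0.25) for *IGF1*. These intervals leave room for *IGF1* in low RFI animals at 0.643 to 1.19 times its level in high RFI animals. The RFI difference itself did not differ detectably between the sexes, with an interaction of −0.16 for *GHR* (SE 0.31, adjusted p = 0.969 by limma) and 0.15 for *IGF1* (SE 0.44, adjusted p = 0.972 by limma). In both of these fits 0% of 7045 genes passed by limma, with 350 and 256 at an unadjusted p under 0.05 and 0 by the edgeR quasi-likelihood test.

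In heifer muscle, *GHR* was 54.2 CPM ± 32.3 in high and 49.1 CPM ± 23.5 in low RFI animals (SD, n = 5 each). The mean CPM was thus lower in low RFI heifers, whereas the scaled log2 difference was 0.31 (SE 0.55, 95% interval −0.89 to 1.5, adjusted p = 0.999 by limma). It was 0.05 with library size alone, where the median of all genes was −0.24, and −0.20 without heifer 2628. In bull muscle, *GHR* was 56.6 CPM ± 35.4 in the 4 high and 75.0 CPM ± 23.8 in the 2 low RFI samples kept (SD), with a log2 difference of 0.69 (SE 0.51, 95% interval −0.47 to 1.85, adjusted p = 0.893 by limma). An exact permutation test of 4 against 2 samples cannot give a p below 0.0667, and gave 0.400. The log2 difference was 0.28 without 2641 and 0.42 without 2723, and 0.96 without 2666 (95% interval 0.03 to 1.90, unadjusted p = 0.0450 and adjusted p = 0.682 by limma).

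With the muscle of both sexes fitted together, the log2 difference of *GHR* with RFI was 0.42 (SE 0.42, 95% interval −0.46 to 1.31, adjusted p = 1.00 by limma). In the heifer, bull and joint muscle fits 0% of genes passed by limma, with 91, 123 and 176 at an unadjusted p under 0.05. The edgeR quasi-likelihood test called 0 genes in each. All 3 intervals for *GHR* in muscle were wider than those in liver.

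**Figure D4:**
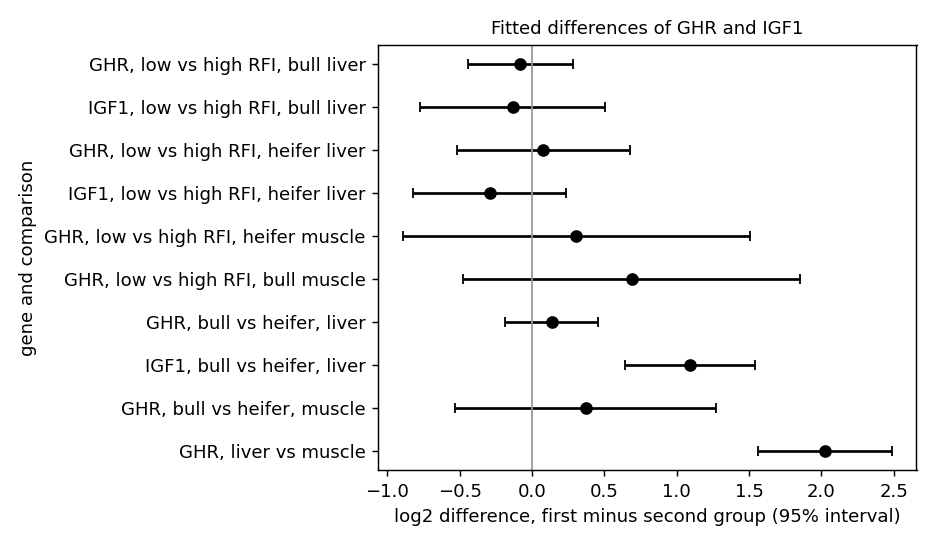
Fitted log2 differences of GHR and IGF1 (horizontal axis, first group minus second) with 95% intervals, by gene and comparison (vertical axis). The intervals of IGF1 between bulls and heifers in liver (0.64 to 1.54) and of GHR between liver and muscle (1.56 to 2.49) lie above 0, and the other intervals include 0.

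Liver samples with more *GHR* also had more *IGF1*. Over the 17 samples, Pearson's r of the scaled log2 values was 0.63 (permutation p = 0.00676, adjusted p = 0.0101 over the 3 relations of pooled, bulls and heifers) and Spearman's rho 0.53 (permutation p = 0.0303, adjusted p = 0.0455). Without any 1 of bulls 2641, 2713 and 2723 and heifers 2670 and 2632, rho was 0.44 to 0.48 (permutation p of 0.0640 to 0.0931). As the sexes differ in *IGF1*, the relation was also taken within each. In the 10 bulls r was 0.84 (permutation p = 0.0011, adjusted p = 0.0033) and rho 0.78 (permutation p = 0.0101, adjusted p = 0.0304). In the 7 heifers r was 0.70 (exact permutation p = 0.0881, adjusted p = 0.0881) and rho 0.57 (exact permutation p = 0.20, adjusted p = 0.20).

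**Figure D5:**
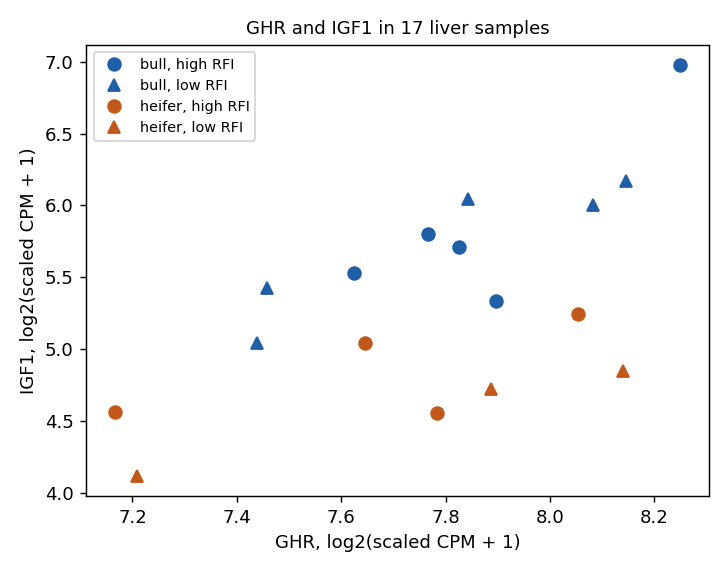
Scaled log2 values of GHR (horizontal axis) and IGF1 (vertical axis) in 17 liver samples, bulls in blue and heifers in orange, circles for high and triangles for low RFI. Both sexes slope upward (r of 0.84 in bulls and 0.70 in heifers), and at a like level of GHR the heifers lie below the bulls.

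The pooled relation rested in part on a pair of heifers. Without 2670 and 2632, the samples farthest from the median of *GHR*, r was 0.43 (permutation p = 0.106, n = 15). In bulls without 2641 and 2712 r was 0.70 (exact permutation p = 0.0526, n = 8), and in heifers without 2670 and 2632 it was 0.22 (exact permutation p = 0.733, n = 5). With the mean of each sex and RFI group removed, r over the 17 samples was 0.77 (permutation within groups, p = 0.00101). Among the 13 samples with 4-digit tags r was 0.68 (permutation p = 0.0107).

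Technical measures moved with both genes to a lesser degree. With group means removed, r with the log2 share of the muscle profile over the 17 liver samples was 0.55 for *GHR* and 0.41 for *IGF1*. With log2 depth it was −0.40 for *GHR* and −0.29 for *IGF1*. These are descriptions of genes and measures read from the same libraries, and the part of either measure in the relation of *GHR* with *IGF1* was not tested. In a biopsy, fewer cells of a type and less RNA per cell cannot be told apart.

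The relation was placed among all genes by the same measure, r over the 17 liver samples with group means removed. Of 7044 other genes, *GHR* ranked 8 in likeness to *IGF1*, and *IGF1* ranked 73 in likeness to *GHR*. The middle 90% of genes had r of −0.50 to 0.51 with *IGF1* and of −0.60 to 0.65 with *GHR*. The genes of the highest and lowest r carry identifiers that the files do not pair with a name. Those most like *GHR* were ENSBTAG00000005785 (r = 0.92) and ENSBTAG00000021675 (r = 0.90), and those most like *IGF1* were ENSBTAG00000010951 (r = 0.85) and ENSBTAG00000008699 (r = 0.84). The lowest r was −0.86 with *GHR* (ENSBTAG00000017905) and −0.82 with *IGF1* (ENSBTAG00000016161).

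Of the 16 genes the study names, it called 11 differentially expressed with RFI in bull liver, on samples used here, and 5 in heifer muscle. *CRELD2*, from bull liver, stood lowest. This gene encodes a protein of the endoplasmic reticulum that rises with unfolded protein stress, and its r was −0.78 with *GHR* and −0.62 with *IGF1*. The other chaperones and stress proteins of that compartment had weaker negative r with *GHR*, with *MANF* at −0.55, *DNAJB11* at −0.49, *HYOU1* at −0.37 and *HSPA5* at −0.35. With *IGF1* these 4 ranged from −0.32 to −0.21. The named gene *GSTT1* (−0.57) had a more negative r with *GHR* than any of these 4. *LIMS2* (−0.41) had a more negative one than *HYOU1* and *HSPA5*. Apart from *CRELD2*, all of these r with *GHR* lay above −0.60, the 5th percentile of all genes. *ACTA2*, the smooth muscle actin, had the highest r of the named genes with both members, 0.46 with *GHR* and 0.60 with *IGF1*.

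In muscle, *GHR* followed a pattern that many genes shared. Over the 16 muscle samples with group means removed, the highest r was 0.99 (ENSBTAG00000019759). Of 5357 genes, 5% had r above 0.93 and 5% had r below −0.80. The r of muscle *GHR* was 0.38 with log2 depth and 0.36 with the log2 share of the liver profile, and their part in this pattern was not tested. Of the mitochondrially encoded genes the study names, which encode parts of the respiratory chain, r with muscle *GHR* ran from −0.45 (*COX3*) to 0.02 (*ND6*). Of the genes named from bull liver, only *HSPA5*, *ACTA2*, *MANF* and *LIMS2* were also placed in muscle. For *HSPA5* and *ACTA2* the sign changed between the tissues. The r with *GHR* was 0.55 in muscle and −0.35 in liver for *HSPA5*, and −0.61 and 0.46 for *ACTA2*. It was negative in both tissues for *MANF* (−0.24 in muscle) and *LIMS2* (−0.68 in muscle). All of these r in muscle lay between −0.80 and 0.93, the limits that leave out 5% of genes at each end. Their r in liver lay between −0.60 and 0.65, the same limits for *GHR* in liver. Whether a change of sign was more common in these genes than in others was not tested.

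The samples set apart are given for completeness. Bull muscle M12, M6 and 2712, with 99.7% of the liver profile, had *GHR* at 218, 307 and 166 CPM, in or near the range of liver. Bull muscle M74, with 49.2%, had 192 CPM. Heifer liver L58, with 98.3% of the muscle profile, had *GHR* at 46.4 CPM, within the range of muscle, and 2 reads on *IGF1*, or 0.418 CPM (exact Poisson 95% interval 0.0506 to 1.51, counting error only). Heifer liver L16 (74.5%) had *GHR* at 91.7 CPM and *IGF1* at 12.1 CPM, and 2728 (48.4%) had 153 CPM and 9.35 CPM. *IGF1* was lower in each of these 3 than in the 7 heifer liver samples kept.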

How the data were processed

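The authors sequenced mRNA libraries, aligned reads to UMD3.1 with STAR 2.5.1, counted them on protein-coding Ensembl genes with HTSeq 0.6.1p2 and tested counts with edgeR 3.5. The deposited values are CPM per gene and sample, and how the genes listed were chosen is not given in the sources used here. Every value was a whole number of reads (100% within 0.01 read), which gave the depth. The last 1359 rows of the bull muscle files repeat the liver values of bull 2723 and were dropped.

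Genes above 1 CPM in at least as many samples as the smaller group were fitted as log2(TMM-scaled CPM + 1) with limma 3.58.1 in R 4.3.3 (trended variance, Benjamini-Hochberg adjusted p under 0.1). Fold changes are on this scale, which understates those of low genes. Single genes were tested by two-sided exact permutation over samples, and correlations over 10 or more samples by 100000 permutations, in Python 3.11.15 with scipy 1.17.1. edgeR 4.0.16 and DESeq2 1.42.0 were run on recovered reads as alternatives. The fits were also run on counts simulated with the same spread for every gene, unlike the real data, and no result given here rests on them. The members and lists were chosen with earlier results of these data known. The joint fits of both sexes and the ratio of *IGF1* to *GHR* were added after seeing the data. By rule, the members and a set number of genes of highest and lowest r with them in liver were to be named. Only the most extreme of these genes are printed. Gene names come from the study's text, so lists of other pathway genes and of cell type markers could not be matched and were not analysed here. Intervals on reads cover counting error only.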

Additional observations from a re-analysis of the deposited data

Results flagged for a closer look

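*IGF1* in the liver of high RFI bull 2641 was 122 CPM, far from the 42.0 to 55.5 CPM of the other high RFI bulls. It was singled out because its gap to the next sample was large for the range of its group by Dixon's test, the only such sample among 18 sets of values tested, where chance alone gives about 1 in 20. Without this bull the log2 difference of *IGF1* between bulls and heifers was 0.95, with an adjusted p of 0.0137 by limma.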

How the results depend on the processing

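Of 355 alternative values of the members, 334 kept their direction and side of the threshold. Of 225 alternative counts of genes, 204 were within 1.5 times the reported count or, where that was 0, were 0 again. Most of the 225 belong to comparisons with a reported count of 0. The difference of *IGF1* between bulls and heifers kept an adjusted p of 0.0112 to 0.0227 by limma or edgeR in 6 alternatives (scaling, pseudocount, test, tag style, without bull 2713), and 0.00484 to 0.0327 when 1 sample was left out. With all 20 liver samples it was 1.61 (adjusted p = 0.167), and 17 genes passed in place of 277. *GHR* between the tissues passed under every alternative run, and with the animal tag as replicate block it was 2.04. With all samples kept, the RFI difference of *GHR* in heifer liver was −0.28 and its interaction with sex 0.17. In that setting the RFI difference of *IGF1* in heifer liver was −0.83, that of *GHR* 1.18 in bull muscle and 0.75 in the muscle of both sexes, and *GHR* between the sexes in muscle 1.14 (unadjusted p = 0.0222, adjusted p = 0.133 by limma). Of the samples set apart, bull muscle M6, 2712 and M74 and heifer liver L58 and L16 were of low RFI. Bull muscle M12 and heifer liver 2728 were of high RFI. With all samples kept, the low RFI groups thus held more samples with the other tissue's profile than the high RFI groups. By the edgeR quasi-likelihood test the joint liver RFI difference of *GHR* was 0.0015. For RFI, the edgeR exact test called 10 genes in bull liver and 6 in heifer liver, and DESeq2 68 and 5, in place of 0. Library size alone gave 4 genes between the sexes in muscle, in place of 7, and shifted the median gene by −0.24 for RFI in heifer muscle, −0.16 for RFI in the muscle of both sexes and 0.16 between tissues. Without the 2 liver samples farthest from the median of *GHR*, its r with *IGF1* was 0.43. The cause of these changes was not tested.

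Leaving out 1 sample at a time gave these ranges. In bull liver 0 to 7 genes passed for RFI (7 without 2713), with *GHR* at −0.17 to 0.020 and *IGF1* at −0.27 to 0.15. In heifer liver 0 to 2 genes passed, with *GHR* at −0.12 to 0.35 and *IGF1* at −0.44 to −0.065 (the latter without 2632). In heifer muscle *GHR* ran from −0.20 (without 2628) to 0.60, in bull muscle from 0.28 (without 2641) to 0.96 (without 2666), and in the joint muscle fit from 0.12 (without 2628) to 0.61. The sex difference of *GHR* in muscle ran from 0.089 (without 2628) to 0.61 (without 2641). Between the sexes in muscle 4 to 13 genes passed (13 without heifer 2628, and 4 without M65 or 2723 in bulls or 2704 or M62 in heifers). For the interaction in liver 0 to 4 genes passed (4 without 2713), with *GHR* at −0.43 to 0.035 and *IGF1* at −0.063 to 0.43. In the joint liver fit for RFI 0 to 1 gene passed, with *GHR* at −0.091 to 0.067. The r of *GHR* with *IGF1* ran from 0.54 to 0.73, and rho from 0.44 to 0.64. In bull muscle 1 low RFI sample may remain, which is then assumed to vary like the others.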
